A study of Homo sapiens with 8 samples.

Results

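The zinc finger gene cluster at 19q13.43, near the end of the long arm of human chromosome 19, was examined in HT144 cells. HT144 is an established melanoma cell line. The members were 31 ZNF genes of that band, given by a list of symbols that holds ZNF274. The choice was by position and gene family, but earlier results of these data were known when it was made. Other ZNF genes of the band, such as ZNF583, were not on the list. Of these 31 genes, 29 had a probe with a gene name on the arrays, and 23 were measured, meaning that a probe had a detection p under 0.05 on at least 2 of the 8 arrays. Over the whole series 13974 genes of 20044 with a named probe were measured.

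The 8 arrays held 1 sample each, and all came from HT144 cells carrying an expression construct or its control. There were 2 arrays labelled SETDB1 OE, for overexpression of SETDB1, 3 labelled HC/KA-SETDB1 OE, for overexpression of a form of SETDB1 whose label is not spelled out in the sources used here, and 3 labelled empty vector, which served as the control of both. The labels do not say whether replicates were separate cultures, so the p-values reflect how far these arrays scatter, possibly for technical reasons alone, and they describe 1 cell line. In RNA from bulk cells, fewer cells expressing a gene and less RNA per cell cannot be told apart.

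Most genes of this cluster encode proteins with arrays of C2H2 zinc fingers, which bind DNA, and many of these carry a KRAB domain. The KRAB domain recruits the co-repressor TRIM28, which brings in SETDB1, a histone methyltransferase that lays down the repressive mark H3K9me3. ZNF274 is known for binding the 3′ ends of zinc finger genes on chromosome 19 and for recruiting TRIM28 and SETDB1 there, so a gene of the cluster encodes a protein that directs this mark to genes of its own family.

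Promoters are shown first, because the members shared a sequence feature there. RefSeq promoters of build GRCh38.p14, each 250 bases before and 50 after a start site, were found for 28 of the 31 members. ZNF135 had 2 of them, so 29 promoters were read. They were rich in CpG, with a median of 21 per promoter and a range of 11 to 34, against a median of 14 over all 35116 promoters. The ratio of observed to expected CpG was above 0.6 in 27 of 29 (93.1%), against 48.8% of all promoters, while the median GC content was 58% in the members and 58.67% overall.

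The letters CCGGAAG, the core of ETS family binding sequences, were present on either strand in 18 of the 29 member promoters (62.1%). They were present in 198 of 618 other ZNF promoters (32%), in 17.9% of the other promoters with an observed to expected CpG ratio above 0.6, and in 10.3% of all promoters. Of the 18, 15 had the match nearest to the start site between -53 and 10 bases from it, and in 13 it read CTTCCGG on the strand of the gene. In all, 5 motifs were searched on both strands, without overlap between them being removed. The TATA box letters TATAAA were found in 1 of 29 member promoters (3.45%) and in 11.5% of all promoters. The fixed letters AAGATGG, searched for YY1, were found in 0 of 29 and in 5.84% of all promoters. Other spellings of the YY1 motif were not searched, so this count does not show that they were absent. The 10-letter NRF1 motif and a 10-letter palindrome with a CGCG centre were also found in 0 of 29, against 1.24% and 0.424% of all promoters. A match is a description of the letters and shows no binding.

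The windows of 29 bases round that match are given for ZNF274 and for 7 members named below, so that the shared letters can be compared. Each reads 5′ to 3′ on the strand of its gene in GRCh38.p14, and the capitals mark the match.
ZNF274 (chr19:58183059-58183087, plus strand): ccattccagcaCTTCCGGcctgacccctg
ZNF671 (chr19:57727623-57727651, minus strand): cgtgggcgggaCTTCCGGctcctccttgt
ZNF549 (chr19:57527319-57527347, plus strand): tacgccagaatCTTCCGGcgtctttccgg
ZNF416 (chr19:57578890-57578918, minus strand): gtaaggcgggaCTTCCGGcaccgctccga
ZNF134 (chr19:57614214-57614242, plus strand): tctgggcgggaCTTCCGGtatcttcctcg
ZNF419 (chr19:57487722-57487750, plus strand): aatgggcgggaCTTCCGGcgtctcgtttg
ZNF256 (chr19:57947835-57947863, minus strand): ggcctttacttCCGGAAGgaggtggaggc
ZNF544 (chr19:58228904-58228932, plus strand): tccgccggccaCCGGAAGcaccgccattg

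A longer run, GACTTCCGG, was searched after these windows had been read. It was present in 10 of 29 member promoters (34.5%), in 21 of 618 other ZNF promoters (3.4%) and in 0.866% of all promoters. ZNF671, ZNF416, ZNF134 and ZNF419 held it, and ZNF274 did not. The ZNF274 promoter differed from these in having a second match further upstream. Its 250 bases before the start site, shown because ZNF274 is the member that ties the cluster to SETDB1, hold 14 CpG, and the capitals mark that second match.
ZNF274 upstream (chr19:58182811-58183060, plus strand): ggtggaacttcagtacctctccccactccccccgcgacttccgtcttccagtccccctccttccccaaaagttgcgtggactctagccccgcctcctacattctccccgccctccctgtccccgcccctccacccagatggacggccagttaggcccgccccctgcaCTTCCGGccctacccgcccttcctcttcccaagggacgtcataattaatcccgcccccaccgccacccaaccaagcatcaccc

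Of the member genes with the match, 14 of 18 were measured on the arrays, and of those with a promoter and no match, 7 of 10 were.

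The arrays were alike in brightness, with a median intensity of 89.0 to 94.4 and 44.6% to 45.7% of probes detected. Pairs within a group correlated at 0.961 to 0.988 over the measured genes. The arrays HC/KA-SETDB1 OE 1 and 2 correlated best with an empty vector array and not with their own group. Melanoma markers were present, with 7 of 8 measured and each of these detected on all 8 arrays, and DCT had no probe. Their summed linear level was 6342 to 6531 on SETDB1 OE arrays, 7627 to 12356 on HC/KA-SETDB1 OE arrays and 13136 to 19996 on empty vector arrays. Bright markers weigh most in such a sum. In SETDB1 OE against empty vector all 7 had a negative log2 fold change, and TYR was called lower (-1.50, adjusted p = 0.0382, limma). In HC/KA-SETDB1 OE against empty vector 5 were positive, and only PMEL (-1.80) and MLANA (-0.98) were negative. Of 16 markers of fibroblasts, epithelium, blood cells and endothelium, 9 were measured. Their sum was 1892 to 2891 on SETDB1 OE arrays, 3349 to 4020 on HC/KA-SETDB1 OE arrays and 2819 to 3065 on empty vector arrays. In HC/KA-SETDB1 OE against empty vector 7 of these 9 had a negative log2 fold change, among them LUM (-1.42) and DCN (-1.24). COL1A2 (1.24) and CD14 (0.69) were positive, and none was called by limma (lowest adjusted p = 0.0948). KRT5, CDH1, CD3E and CDH5 were detected on none, while COL1A2, LUM, CD68 and CD14 were detected on all 8. The part of these shifts in the results on the cluster was not tested.

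The overexpressed gene did not check the labels. On the log2 scale SETDB1 read 8.0 and 7.66 on SETDB1 OE arrays, 8.32, 8.42 and 9.0 on HC/KA-SETDB1 OE arrays, and 8.25, 8.19 and 8.04 on empty vector arrays. The arrays labelled SETDB1 OE were thus the lowest of the 8. The log2 fold change was -0.33 ± 0.24 (SE, adjusted p = 0.692, limma) for SETDB1 OE against empty vector and 0.42 ± 0.22 (adjusted p = 0.463) for HC/KA-SETDB1 OE against empty vector. Whether the construct holds the target of the probe was not tested, and directions below are those of the labels. TRIM28, which lies in the same chromosomal band as the cluster, differed little in the same 2 comparisons, by 0.01 ± 0.28 and -0.15 ± 0.25.

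The members ranged widely in level. Over the 8 arrays the mean log2 intensity of the 23 measured members had a median of 5.97, against 5.84 over the 380 measured ZNF genes and 6.66 over all measured genes. ZNF549 was the brightest member at 11.54, followed by ZNF544 at 8.96, ZNF419 at 8.33, ZNF586 at 8.04 and ZNF274 at 7.87. ZNF418 was the dimmest at 4.69, with ZNF417 at 4.74, ZNF606 at 4.81 and ZNF8 at 4.85 just above it. Levels of different probes also depend on how each probe binds, so this order describes probes, not amounts of RNA. Of the members with a probe, 79.3% were measured, against 77.1% of ZNF genes and 69.7% of all genes.

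The chosen probe was detected on all 8 arrays for 18 members. ZNF543 was detected on 7 arrays, and ZNF417, ZNF418, ZNF606 and ZNF8 on 4 each, so the values of these 5 lie near the background. Some members detected on all 8 were dim as well. ZNF551 averaged 5.04, ZNF304 5.68, ZNF416 5.77 and ZNF671 5.79 on the log2 scale, against 5.04 for ZNF543. ZNF417 and its neighbour ZNF587 are close paralogues known for repressing endogenous retroviruses. Neither probe of ZNF587 was detected on more than 1 array. ZNF749, ZNF530, ZNF552 and ZNF135 were detected on 1 array each and ZNF547 on 0, and ZNF550 and ZNF154 had no probe with a gene name. These 8 genes were not analysed further.

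**Figure D1:**
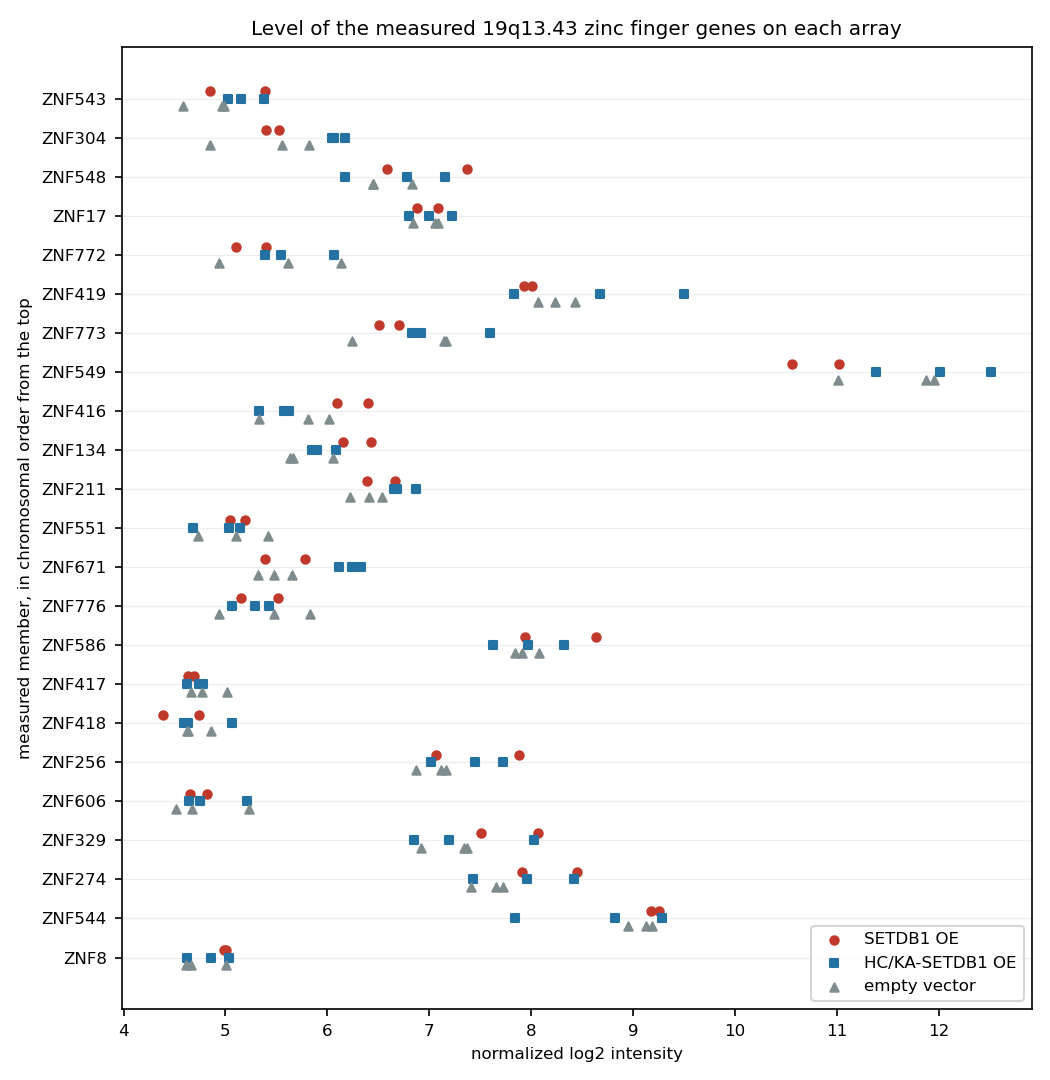
Normalized log2 intensity (horizontal axis) of the 23 measured members (rows, in chromosomal order from the top) on each of the 8 arrays, with red circles for SETDB1 OE, blue squares for HC/KA-SETDB1 OE and grey triangles for empty vector. Differences between members, from 4.69 for ZNF418 to 11.54 for ZNF549, are far larger than differences between groups, and the groups overlap for most members.

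No measured member passed an adjusted p of 0.05 in any of the 3 comparisons. The comparison of SETDB1 OE with empty vector called 37 of 13974 genes (0.265%), that of HC/KA-SETDB1 OE with empty vector called 45 (0.322%), and the direct comparison of both overexpression groups called 606 (4.34%). The second count was 127 with the replicate number as a block. At an unadjusted p under 0.05 the members numbered 2, 2 and 4 of 23 in the same order, and the shares over all genes were 10.8%, 12.5% and 22.1%. Both comparisons with empty vector use the same 3 empty vector arrays, so they are not independent of each other.

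ZNF274 was higher on both SETDB1 OE arrays than on any empty vector array. It read 8.45 and 7.91 on SETDB1 OE arrays, 8.42, 7.43 and 7.95 on HC/KA-SETDB1 OE arrays, and 7.73, 7.66 and 7.41 on empty vector arrays. The HC/KA-SETDB1 OE arrays spread over nearly the whole range of the others, with the first beside the higher SETDB1 OE array and the second beside the lowest empty vector array. SETDB1 OE over empty vector gave a log2 fold change of 0.58 ± 0.29 (SE, 95% interval -0.06 to 1.23, adjusted p = 0.513, limma). Without SETDB1 OE 1 it was 0.32, and with the mean of the passing probes it was 0.24. For HC/KA-SETDB1 OE over empty vector it was 0.34 ± 0.26 (interval -0.24 to 0.92, adjusted p = 0.664), with 0.09 without HC/KA-SETDB1 OE 1 and 0.59 without HC/KA-SETDB1 OE 2. For SETDB1 OE over HC/KA-SETDB1 OE it was 0.25 ± 0.29 (interval -0.40 to 0.90, adjusted p = 0.681). None of the 3 differences passed the test, and the intervals do not show that the groups were alike. A second, dimmer ZNF274 probe read 6.27 and 6.0 on SETDB1 OE arrays, 6.53, 5.62 and 6.04 on HC/KA-SETDB1 OE arrays, and 5.72, 6.26 and 5.32 on empty vector arrays. There the SETDB1 OE arrays overlapped the empty vector arrays. The remaining probe was detected on 3 of the 8 arrays only, none of them SETDB1 OE.

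In SETDB1 OE against empty vector the measured members had a median log2 fold change of 0.10 and a range of -0.82 to 0.58, with 14 positive and 9 negative, and all measured genes had a median of -0.0011. The arrays of the 2 groups did not overlap for 5 members (21.7%), which is below the share over all genes (32.0%). ZNF274, ZNF416, ZNF134 and ZNF329 were the 4 that lay higher on both SETDB1 OE arrays, and ZNF419 lay lower.

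ZNF134 read 6.15 and 6.43 on SETDB1 OE arrays, 5.85, 5.90 and 6.08 on HC/KA-SETDB1 OE arrays, and 6.06, 5.64 and 5.66 on empty vector arrays. Both SETDB1 OE arrays were above the other 6. Its log2 fold change of SETDB1 OE over empty vector was 0.50 ± 0.21 (SE, unadjusted p = 0.0391, adjusted p = 0.429, limma), the lowest adjusted p among the members in this comparison.

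ZNF416 was likewise highest on the SETDB1 OE arrays. It read 6.40 and 6.09 on SETDB1 OE arrays, 5.33, 5.57 and 5.63 on HC/KA-SETDB1 OE arrays, and 5.81, 5.33 and 6.01 on empty vector arrays. It had a log2 fold change of 0.53 over empty vector (adjusted p = 0.465, limma), which was 0.34 without empty vector 2, and 0.74 over HC/KA-SETDB1 OE (adjusted p = 0.109). ZNF329 read 8.06 and 7.51 on SETDB1 OE arrays, 8.03, 6.85 and 7.19 on HC/KA-SETDB1 OE arrays, and 7.34, 7.37 and 6.92 on empty vector arrays, a log2 fold change of 0.57 over empty vector (adjusted p = 0.579) and of 0.30 without SETDB1 OE 1. As for ZNF274, the first SETDB1 OE array and the first HC/KA-SETDB1 OE array stood together at the top. ZNF256, a KRAB zinc finger gene whose product is known to bind TRIM28, read 7.89 and 7.07 on SETDB1 OE arrays, 7.73, 7.02 and 7.45 on HC/KA-SETDB1 OE arrays, and 7.17, 6.87 and 7.11 on empty vector arrays. Its second SETDB1 OE array lay among the empty vector arrays. The log2 fold change over empty vector, 0.43 (adjusted p = 0.652), rested on 1 array, being 0.02 without SETDB1 OE 1 and 0.83 without SETDB1 OE 2.

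ZNF549 was lower in SETDB1 OE by its bright probe and higher by its dim one. The bright probe read 10.56 and 11.02 on SETDB1 OE arrays, 11.39, 12.02 and 12.51 on HC/KA-SETDB1 OE arrays, and 11.01, 11.96 and 11.88 on empty vector arrays. Both SETDB1 OE arrays were below all HC/KA-SETDB1 OE arrays and overlapped the first empty vector array. The log2 fold change was -0.82 ± 0.37 over empty vector (SE, unadjusted p = 0.047, adjusted p = 0.451, limma) and -1.18 ± 0.37 over HC/KA-SETDB1 OE (95% interval -1.99 to -0.37, adjusted p = 0.0944), the lowest adjusted p of any member in any comparison. That last difference was called with the replicate number as a block (-0.98, adjusted p = 0.0410), with array weights (-1.36, adjusted p = 0.0341) and without HC/KA-SETDB1 OE 1 (-1.47, adjusted p = 0.0323), and it was -0.20 (adjusted p = 0.676) when the passing probes of each gene were averaged.

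The second ZNF549 probe read 5.97 and 6.12 on SETDB1 OE arrays, 5.37, 5.61 and 4.81 on HC/KA-SETDB1 OE arrays, and 5.63, 5.63 and 5.89 on empty vector arrays. Here both SETDB1 OE arrays were the highest of the 8. The difference between group means was 0.78 for SETDB1 OE over HC/KA-SETDB1 OE and 0.33 over empty vector, so the 2 probes of ZNF549 gave opposite signs. The probe sequences were not used here, and which transcripts each probe reads was not tested.

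**Figure D2:**
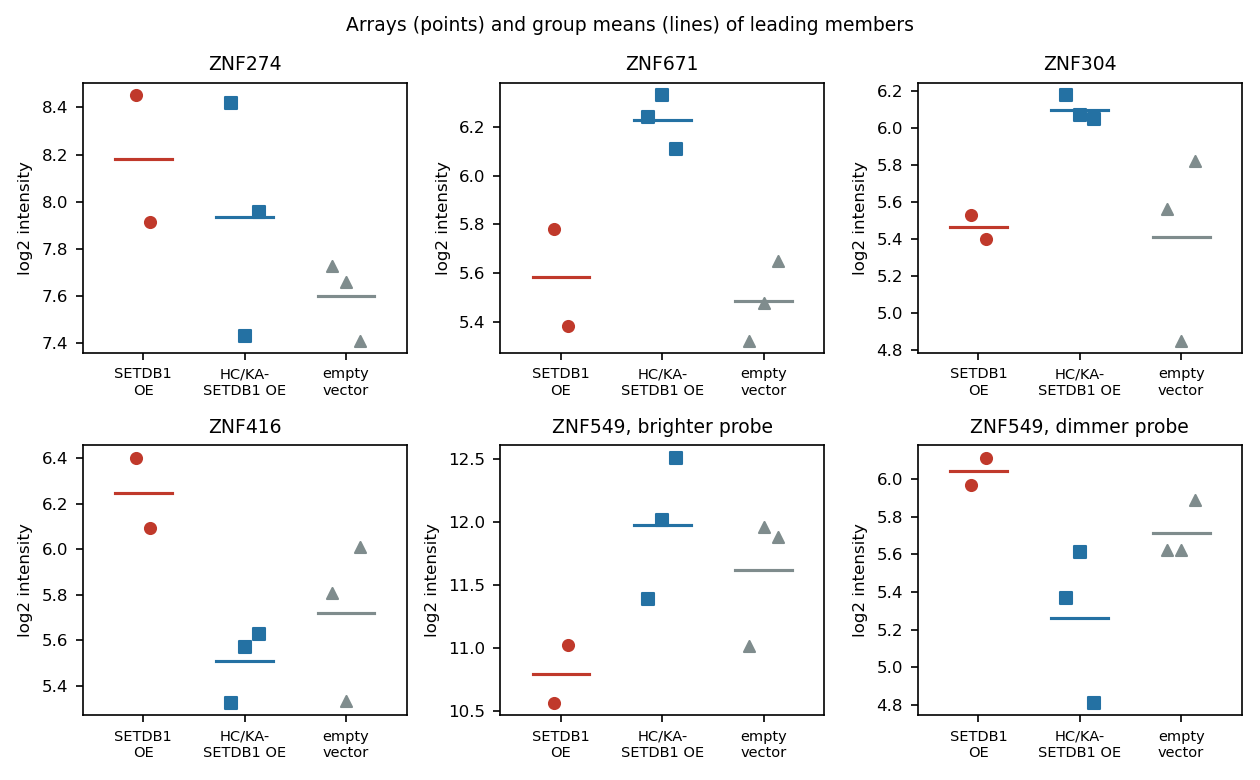
Log2 intensity of ZNF274, ZNF671, ZNF304, ZNF416 and both ZNF549 probes on each array (points) with group means (lines), in panels with separate vertical axes that do not start at 0. HC/KA-SETDB1 OE arrays are highest for ZNF671 and ZNF304, SETDB1 OE arrays are highest for ZNF416, and the ZNF549 probes give opposite orders of the groups.

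In HC/KA-SETDB1 OE against empty vector the measured members had a median log2 fold change of 0.13 and a range of -0.44 to 0.74, with 18 positive and 5 negative. The 357 other measured ZNF genes had a median of 0.10, with 235 positive and 122 negative, and all measured genes had a median of 0.01. The arrays did not overlap for 4 members (17.4%), close to the share over all genes (16.9%), and all 4 were higher on the HC/KA-SETDB1 OE arrays. They were ZNF671, ZNF304, ZNF211 and ZNF543.

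ZNF671, a gene known for silencing by promoter methylation in several cancers, read 5.78 and 5.38 on SETDB1 OE arrays, 6.24, 6.33 and 6.11 on HC/KA-SETDB1 OE arrays, and 5.32, 5.48 and 5.65 on empty vector arrays. The HC/KA-SETDB1 OE arrays were the 3 highest and kept within a narrow range. They averaged 6.23 ± 0.11, against 5.48 ± 0.16 on empty vector arrays (SD, n = 3 each). The log2 fold change was 0.74 ± 0.19 (SE, 95% interval 0.33 to 1.16, adjusted p = 0.152, limma), or 1.67-fold. It was 0.34 with no background correction and 0.31 on the authors' deposited log2 values. SETDB1 OE over HC/KA-SETDB1 OE gave -0.64 (interval -1.11 to -0.18, adjusted p = 0.108), and SETDB1 OE over empty vector gave 0.10 (adjusted p = 0.920). Its promoter had 11 CpG, the low end of the members' range.

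ZNF304, known for directing the silencing of a tumour suppressor locus in colorectal cancer cells, had the same order of groups. It read 5.53 and 5.40 on SETDB1 OE arrays, 6.17, 6.07 and 6.05 on HC/KA-SETDB1 OE arrays, and 5.56, 4.85 and 5.82 on empty vector arrays. The HC/KA-SETDB1 OE arrays were again the 3 highest, while the empty vector arrays were spread widely. The log2 fold change over empty vector was 0.69 ± 0.24 (SE, adjusted p = 0.282, limma), and it was 0.41 without empty vector 2, the array with the lowest value, and 0.27 on the authors' deposited log2 values. SETDB1 OE over HC/KA-SETDB1 OE gave -0.63 (adjusted p = 0.201). Its promoter held no CCGGAAG.

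ZNF211 and ZNF543 had smaller differences over empty vector, of 0.35 (adjusted p = 0.458, limma) and 0.34 (adjusted p = 0.562). ZNF544 had the most negative log2 fold change, -0.44 (adjusted p = 0.624). It read 9.26 and 9.18 on SETDB1 OE arrays, 7.84, 9.28 and 8.82 on HC/KA-SETDB1 OE arrays, and 8.95, 9.13 and 9.19 on empty vector arrays. The first HC/KA-SETDB1 OE array was far below the other 7, and the second was the highest of all. Without the first the log2 fold change over empty vector was -0.04, and without the second it was -0.76.

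In SETDB1 OE against HC/KA-SETDB1 OE the measured members had a median log2 fold change of -0.02 and a range of -1.18 to 0.74, with 11 positive and 12 negative. The other ZNF genes had a median of -0.12, with 135 positive and 222 negative. The arrays did not overlap for 6 members (26.1%), against 36.9% of all genes. ZNF416 and ZNF134 were higher in SETDB1 OE, and ZNF549, ZNF671, ZNF304 and ZNF773 were lower.

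ZNF419 read 7.93 and 8.01 on SETDB1 OE arrays, 9.50, 7.83 and 8.67 on HC/KA-SETDB1 OE arrays, and 8.43, 8.23 and 8.06 on empty vector arrays. Its HC/KA-SETDB1 OE arrays included both the highest and the lowest value. SETDB1 OE over HC/KA-SETDB1 OE gave a log2 fold change of -0.70 (adjusted p = 0.317, limma). Without HC/KA-SETDB1 OE 2 it was -1.12 (adjusted p = 0.0402), so that array decided whether it was called, and without HC/KA-SETDB1 OE 1 it was -0.29.

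The other 11 measured members, ZNF548, ZNF17, ZNF772, ZNF551, ZNF776, ZNF586, ZNF417, ZNF418, ZNF606, ZNF8 and ZNF773, had log2 fold changes between -0.51 and 0.40 in the 3 comparisons. ZNF17 was the steadiest, at -0.01, 0.01 and -0.02. ZNF586, read by 3 probes, had differences between SETDB1 OE and empty vector of 0.35, 0.24 and -0.05, and differences between HC/KA-SETDB1 OE and empty vector of 0.03, -0.31 and -0.62, from the brightest probe to the dimmest. Of the 23 measured members, the 95% interval lay wholly within a 2-fold change for 15 in SETDB1 OE against empty vector, for 18 in HC/KA-SETDB1 OE against empty vector and for 14 in SETDB1 OE against HC/KA-SETDB1 OE. The shares over all genes were 74.6%, 80.2% and 64.2%. For the remaining members the interval reached past 2-fold, so a change of that size is within what these arrays allow.

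**Figure D3:**
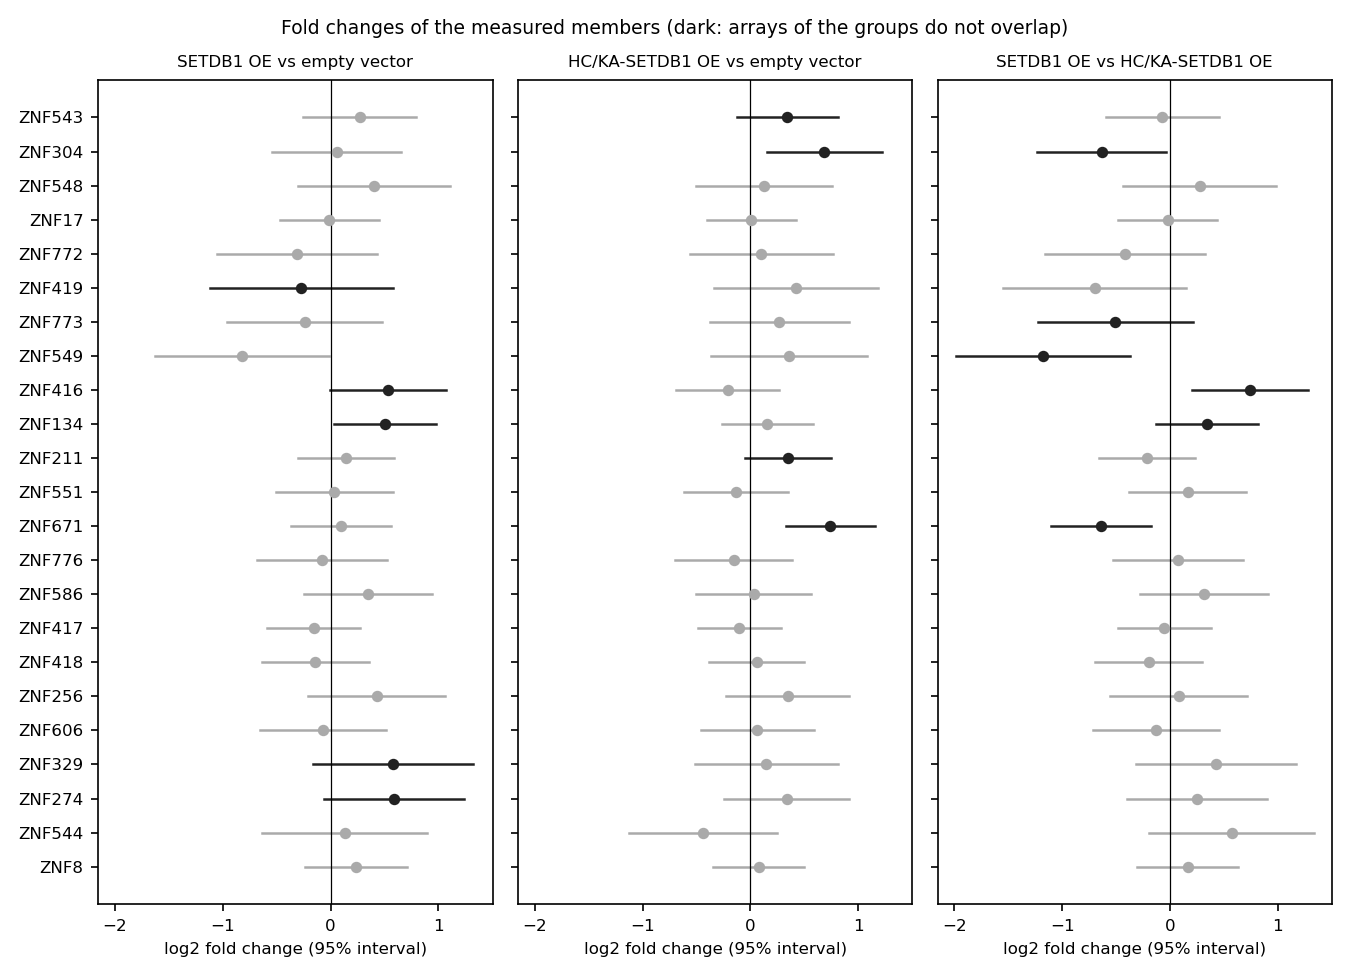
Log2 fold change of the 23 measured members (rows, chromosomal order from the top) with its 95% interval in the 3 comparisons, SETDB1 OE over empty vector, HC/KA-SETDB1 OE over empty vector and SETDB1 OE over HC/KA-SETDB1 OE. Dark symbols mark the 5, 4 and 6 members with no overlap of arrays between groups.

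The members' median on single arrays, as the difference from the mean of the empty vector arrays, was 0.12 and 0.01 on SETDB1 OE arrays, 0.06, -0.04 and 0.22 on HC/KA-SETDB1 OE arrays, and 0.13, -0.03 and 0.02 on empty vector arrays. The groups overlapped on this measure, which does not show that they were alike. The members' median level itself was 6.40 and 6.39 on SETDB1 OE arrays, above every other array. It was 6.24, 6.17 and 6.11 on HC/KA-SETDB1 OE arrays, and 6.14, 5.64 and 6.01 on empty vector arrays. Whether the cluster as a whole shifted was not tested.

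**Figure D4:**
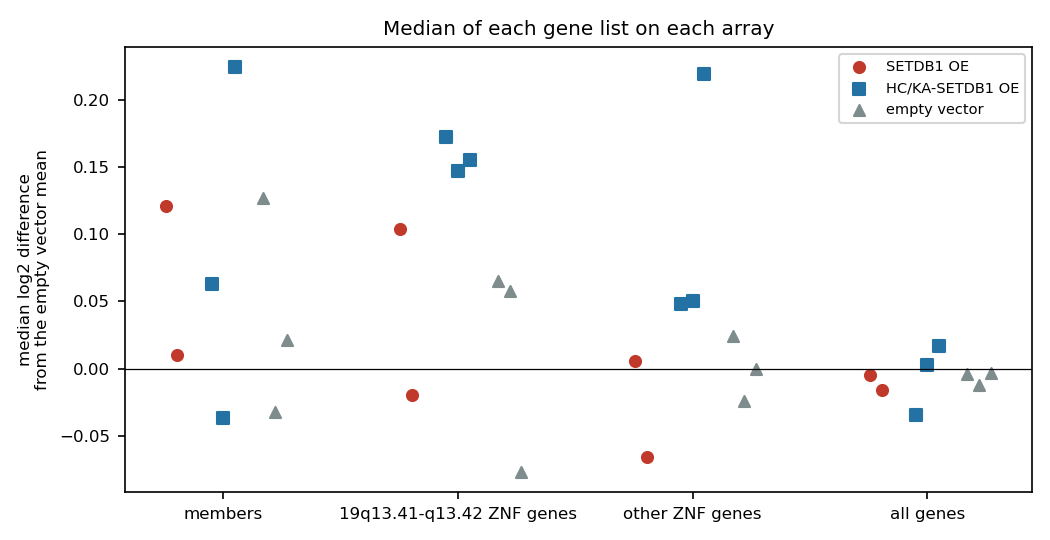
Median log2 difference from the empty vector mean (vertical axis) on each array for the measured members, the ZNF genes at 19q13.41-q13.42, the other ZNF genes and all genes, with red circles for SETDB1 OE, blue squares for HC/KA-SETDB1 OE and grey triangles for empty vector. The members' medians overlap between the groups, from -0.04 to 0.22 on HC/KA-SETDB1 OE arrays and from -0.03 to 0.13 on empty vector arrays.

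Other lists were read beside the members. Of 29 genes of the KRAB repression pathway, all measured, 0 were called in any comparison by limma. At an unadjusted p under 0.05 there were 2, 0 and 3, and the shares over all genes were 10.8%, 12.5% and 22.1%. Among 40 ZNF genes at 19q13.41-q13.42, 27 were measured. Of these, 2, ZNF415 and ZNF83, were called higher in HC/KA-SETDB1 OE than in empty vector, a comparison that called 0.322% of all genes. ZNF415 was not detected on any SETDB1 OE or empty vector array, at 4.45 and 4.44 on SETDB1 OE arrays, 6.07, 5.79 and 6.59 on HC/KA-SETDB1 OE arrays, and 4.45, 4.48 and 4.45 on empty vector arrays. It was at least 3.01-fold higher in HC/KA-SETDB1 OE than in empty vector (adjusted p = 0.0134, limma). ZNF83 had a log2 fold change of 2.07 ± 0.32 (SE, adjusted p = 0.030). Whether the members of the cluster differed from these genes was not tested.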

How the data were processed

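Total RNA of 8 HT144 samples was read on Illumina bead arrays. The authors deposited a linear intensity and a detection p-value per probe and array, per the file headers, and a table of processed log2 values, which served as an alternative and whose making the sources used here do not describe. Intensities were corrected and quantile-normalized with neqc (limma 3.58.1, R 4.3.3, offset 16, background from the detection p-values). Kept probes had, on 2 arrays or more, a detection p under 0.05, which held for 26689 of 48102, and a gene was read from its passing probe of highest mean. Probes were named from the platform annotation, brought up to date with RefSeq gene identifiers: 30110 had 1 symbol, 8 had several and 17984 were unlisted.

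Groups were compared with limma (lmFit, contrasts.fit, eBayes) over the 8 arrays together, 1 term for each group, with Benjamini-Hochberg adjustment over 13974 genes and a call at an adjusted p under 0.05, which left 10.5 degrees of freedom in all. The fit was also run on simulated data with independent noise on each array and changes larger than those of any member. That run does not bear on smaller changes or on arrays that deviate together. The members and lists were chosen with earlier results of these data known. Genes named were ZNF274, the 6 members of smallest p in each comparison, the brightest and dimmest members, those whose probes disagree, and up to 4 genes of each other list by p. Same-numbered arrays of HC/KA-SETDB1 OE and empty vector deviated together, with correlations of 0.459, 0.189 and 0.145 for numbers 1 to 3. The labels give no reason for it, and empty vector 3 correlated more with HC/KA-SETDB1 OE 2 (0.365). The fit described here took no pairs, and the replicate number entered as a block only in another setting. All 8 arrays lay on 1 chip with each group at neighbouring positions, so position and group cannot be told apart. The number of arrays limits the precision. Promoters came from RefSeq (GRCh38.p14), and plots were drawn with matplotlib 3.10.9.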

Additional observations from a re-analysis of the deposited data

Results flagged for a closer look

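Outside the member list, 3 genes of 19q13.43 differed between the 2 overexpression groups by a direct limma test. That comparison called 4.34% of all genes. Of 45 such genes 25 were measured, and 0 were called by limma against empty vector. At an unadjusted p under 0.05 there were 3 in SETDB1 OE and 2 in HC/KA-SETDB1 OE, and the shares over all genes were 10.8% and 12.5%. With the replicate number as a block, ZSCAN18 was the 1 gene of these 25 called in HC/KA-SETDB1 OE over empty vector (1.25, adjusted p = 0.0325, against 0.0717 without the block). SLC27A5, which encodes a bile acyl-CoA synthetase, read 5.68 and 5.92 on SETDB1 OE arrays, 7.40, 6.72 and 7.12 on HC/KA-SETDB1 OE arrays, and 7.09, 6.44 and 7.0 on empty vector arrays. Its log2 fold change of SETDB1 OE over HC/KA-SETDB1 OE was -1.28 ± 0.27 (SE, adjusted p = 0.0289). ZSCAN18, a SCAN domain zinc finger gene, read 6.87 and 6.59 on SETDB1 OE arrays, 8.18, 7.50 and 7.89 on HC/KA-SETDB1 OE arrays, and 6.76, 6.84 and 6.22 on empty vector arrays, with a log2 fold change of -1.13 (adjusted p = 0.0430). ZNF583 read 5.84 and 5.96 on SETDB1 OE arrays, 4.90, 5.15 and 4.93 on HC/KA-SETDB1 OE arrays, and 5.10, 5.33 and 5.42 on empty vector arrays, with a log2 fold change of 0.90 (adjusted p = 0.0340). SLC27A5 was called in 11 of 19 other settings, ZNF583 in 9 and ZSCAN18 in 8, and the highest adjusted p over these settings was 0.223, 0.180 and 0.221 for the 3 genes in that order. Each kept its sign in all 19.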

How the results depend on the processing

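In 19 other settings no member was called in either comparison with empty vector. These were no background correction, scaling to the 75th percentile, the authors' deposited log2 values, an offset of 50, no filter or a filter on all 8 arrays, the mean of passing probes, array weights, only the compared groups, a trended robust prior, the replicate block and each array left out. In SETDB1 OE against HC/KA-SETDB1 OE 1 member was called with array weights and 1 with the replicate block, and 0 to 1 when an array was left out. ZNF549 was that member with array weights (-1.36, adjusted p = 0.0341), with the block (-0.98, adjusted p = 0.0410) and without HC/KA-SETDB1 OE 1 (-1.47, adjusted p = 0.0323), and ZNF419 was called without HC/KA-SETDB1 OE 2. The replicate block changed no other call of a member. ZNF274 in this comparison ranged from -0.021 to 0.517 over the left-out arrays, with the sign turned at -0.021 without SETDB1 OE 1 and at -0.0035 without HC/KA-SETDB1 OE 2. The cause was not tested. Members of low level had smaller fold changes with no background correction, an offset of 50 or the authors' deposited log2 values: on the last, HC/KA-SETDB1 OE over empty vector was 0.31 for ZNF671, 0.27 for ZNF304, 0.19 for ZNF211 and 0.12 for ZNF543, and SETDB1 OE over empty vector was 0.23 for both ZNF416 and ZNF134. The members' median log2 fold change ranged from 0.01 to 0.18, from 0.06 to 0.21 and from -0.10 to 0.08 in the 3 comparisons, and 18 to 22 members were measured under stricter filters. The number of genes called over all genes ranged from 6 to 155, from 2 to 255 and from 41 to 1315, and the last was 41 without SETDB1 OE 1 and 65 without SETDB1 OE 2. No fit with the chip as a block could be made, since all arrays lay on 1 chip.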

Other observations

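The first SETDB1 OE array and the first HC/KA-SETDB1 OE array were the 2 highest of the 8 for ZNF548, ZNF586, ZNF256, ZNF329 and ZNF274, which is 5 of 23 measured members (21.7%), against 4.68% of all genes. This was noticed after the values had been seen and was not tested. The second empty vector array was the lowest for 6 of 23 members (26.1%), against 9.44% of all genes. For the second HC/KA-SETDB1 OE array it was 5 of 23 (21.7%), against 8.71%. These were the highest such counts among the 8 arrays, and they were not tested.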
